A study of Mus musculus with 10 samples.

Results

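The genes of the efferent cholinergic synapse on hair cells (HCs) were followed across the cell types of the aged mouse inner ear. The 5 genes were chosen by symbol from the 32285 genes of the count tables: Chrna9 and Chrna10, which encode the nicotinic receptor subunits alpha 9 and alpha 10, Chrna1, which encodes the alpha 1 subunit of the muscle receptor, Rapsn, which encodes the receptor-clustering protein rapsyn, and Kcnn2, which encodes the calcium-activated potassium channel SK2. Single-cell RNA-seq libraries were made from sensory epithelia of the cochlea and of the vestibule of CBA/J mice aged 22 months. CBA/J is an inbred wild-type strain, no animal was treated or mutated, and each library pooled 7 to 8 mice, so a library is an average over animals. Of 5 libraries per organ, 4 were compared (replicates 1, 3, 4 and 5), because replicate 2 repeated replicate 1 in both organs. No library of a young mouse was used, so nothing below is a change with age.

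Efferent neurons run from the brainstem to the inner ear and release acetylcholine onto HCs and onto afferent endings. In the HC, alpha 9 and alpha 10 subunits assemble into a nicotinic receptor that admits calcium, the calcium opens SK2 channels, and the potassium current hyperpolarises the cell. In the adult cochlea the efferent fibres contact outer hair cells (OHCs) directly and reach inner hair cells (IHCs) mainly before the onset of hearing. In the vestibule, type II HCs receive efferent contacts directly, whereas type I HCs are enclosed by an afferent calyx on which efferent fibres end. Alpha 1 and rapsyn are best known from the neuromuscular junction, where rapsyn anchors the muscle receptor, and both have also been described in HCs.

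Of 7272 cochlear and 10424 vestibular cells kept, 1481 were named type I HCs with Adam11 and Spp1 as leading markers, 275 type II HCs with Sox2, 78 OHCs with Slc26a5 and 42 IHCs with Slc17a8. The names mean likeness to these markers, and the clusters were built without the 5 genes. In the type I HCs 92.0% of cells held an Adam11 UMI and 1.42% a Sox2 UMI, against 5.82% and 80.7% in the type II HCs. Slc26a5 was found in 83.3% of OHCs and in no IHC. Subclusters were named by which of Adam11 and Sox2, or of Slc17a8 and Slc26a5, was in more cells, so these shares do not test the names. Slc17a8 was in every IHC and in 7.69% of OHCs, but also in 85.8% of type II HCs. A further 102 cochlear and 522 vestibular HCs were set aside because they also carried supporting cell markers or lacked the defining marker, and their values are given where they bear on a result. Kept cells per library ranged from 571 to 5438, and replicate 3 held the most in both organs. Only replicates 3 and 4 held 5 or more IHCs (32 and 5 cells), so IHC levels in CPM and IHC tests rest on 2 libraries. Shares of cells and UMI counts over all 42 IHCs, and cochlear HCs as a class, also include the 1 and 4 IHCs of replicates 1 and 5. Apart from replicate 2, libraries shared at most 41 cell barcodes, and the files of replicate 1 name Cell Ranger 5.0.1 where those of replicates 3, 4 and 5 name 6.1.2. The unit is CPM throughout: the cells of a type were summed in each library and a gene's UMIs were scaled to a common total.

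In the GRCm38 annotation, Chrna9 lies on chromosome 5 at 65934921-65977326 (plus strand, ENSMUSG00000029205), Chrna10 on chromosome 7 at 102111266-102116828 (minus strand, ENSMUSG00000066279), Chrna1 on chromosome 2 at 73563215-73580338 (minus strand, ENSMUSG00000027107) and Rapsn on chromosome 2 at 91035620-91045729 (plus strand, ENSMUSG00000002104). No other gene of the count tables overlapped any of the 5 genes on the same strand, while Art1 overlapped Chrna10 and Gm13778 overlapped Rapsn on the other strand. The promoters of the 3 subunit genes are shown because Chrna9 and Chrna10 kept nearly the same pattern over cell types and Chrna1 followed it less closely. Each RefSeq window (GRCm38.p6) spans 250 bases before to 50 bases after the gene's start in RefSeq, read 5′ to 3′ on the strand of the gene, and capitals mark each E box, CANNTG, the motif bound by basic helix-loop-helix factors. For Chrna1 this start is that of the span given above, for Chrna10 it lies a short way inside the span, and for Chrna9 far inside it, so the Chrna9 window does not flank the first base of that span.
Chrna9 promoter, chr5:65966874-65967173, plus strand: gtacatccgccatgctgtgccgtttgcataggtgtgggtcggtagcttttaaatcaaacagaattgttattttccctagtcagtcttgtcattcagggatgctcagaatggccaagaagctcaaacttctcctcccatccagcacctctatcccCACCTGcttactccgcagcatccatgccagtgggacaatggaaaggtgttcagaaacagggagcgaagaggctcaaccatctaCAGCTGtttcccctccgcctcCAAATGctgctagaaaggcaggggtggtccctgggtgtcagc
Chrna10 promoter, chr7:102116664-102116963, minus strand: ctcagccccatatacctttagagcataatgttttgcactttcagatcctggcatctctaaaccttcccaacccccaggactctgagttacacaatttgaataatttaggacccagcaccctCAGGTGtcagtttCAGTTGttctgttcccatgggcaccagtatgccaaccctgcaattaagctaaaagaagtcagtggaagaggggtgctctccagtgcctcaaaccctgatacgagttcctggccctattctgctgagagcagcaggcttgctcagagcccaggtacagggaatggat
Chrna1 promoter, chr2:73580289-73580588, minus strand: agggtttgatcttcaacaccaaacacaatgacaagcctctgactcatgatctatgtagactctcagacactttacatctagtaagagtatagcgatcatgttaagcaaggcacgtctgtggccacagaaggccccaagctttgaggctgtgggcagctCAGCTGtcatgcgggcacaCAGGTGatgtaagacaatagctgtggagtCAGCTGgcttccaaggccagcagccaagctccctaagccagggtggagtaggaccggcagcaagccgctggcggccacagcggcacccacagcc
Searched on both strands, the windows held 3, 2 and 3 E boxes, and 72.3% of all 32851 promoter windows of this length held at least 1. The form CAGCTG, which is a subset of the E boxes, was found 1 time in the Chrna9 window, 2 times in that of Chrna1 and not in that of Chrna10, and 16.3% of all windows held it. GTTGCC, AATCNNNGC, ATGCAAAT and TATAAA were in none of the 3 windows, and 12.5%, 10.3%, 1.74% and 13.6% of all windows held them.

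Chrna9 and Chrna10, the subunits of the receptor itself, were high in type I, type II and outer HCs and low in IHCs. In type I HCs, Chrna9 stood at 304.5, 336.7, 259.1 and 309.6 CPM in replicates 1, 3, 4 and 5, a mean of 302 ± 32.2 (SD, n = 4). In type II HCs, it stood at 150.9, 207.9, 157.3 and 233.6 CPM, a mean of 187 ± 40.0 (SD, n = 4). Every type I library thus lay above every type II library. The OHC libraries held 218.7, 214.4, 328.2 and 233.3 CPM, a mean of 249 ± 53.6 (SD, n = 4), and overlapped both vestibular types. In the 2 IHC libraries Chrna9 was at 15.7 and 0 CPM, from 5 UMIs in 32 cells and none in 5 cells.

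Chrna10 was high in the same 3 types, with a wider spread between libraries. Type I HCs held 658.7, 389.3, 454.9 and 429.2 CPM of Chrna10 in replicates 1, 3, 4 and 5, a mean of 483 ± 120 (SD, n = 4). Type II HCs held 392.4, 200.1, 258.8 and 239.9 CPM, a mean of 273 ± 83.4 (SD, n = 4). Type I was above type II within each replicate, but replicate 1 was high in both types, so the 2 sets of libraries overlapped. OHCs held 642.3, 428.8, 328.2 and 551.5 CPM, a mean of 488 ± 138 (SD, n = 4), and overlapped both vestibular types. IHCs held 9.39 and 13.1 CPM of Chrna10, from 3 and 1 UMIs. Other cochlear cells stood at a mean of 0.0904 CPM for Chrna9 and 1.22 CPM for Chrna10, below the IHC means of 7.83 and 11.2 CPM. Single libraries of other cochlear populations still reached the IHC range for Chrna10. The highest was at 24.4 CPM in the population led by Otx2, Crhbp and Vmo1 and at 12.9 CPM in that led by Pcdh17, Agr3 and Vldlr.

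**Figure D1:**
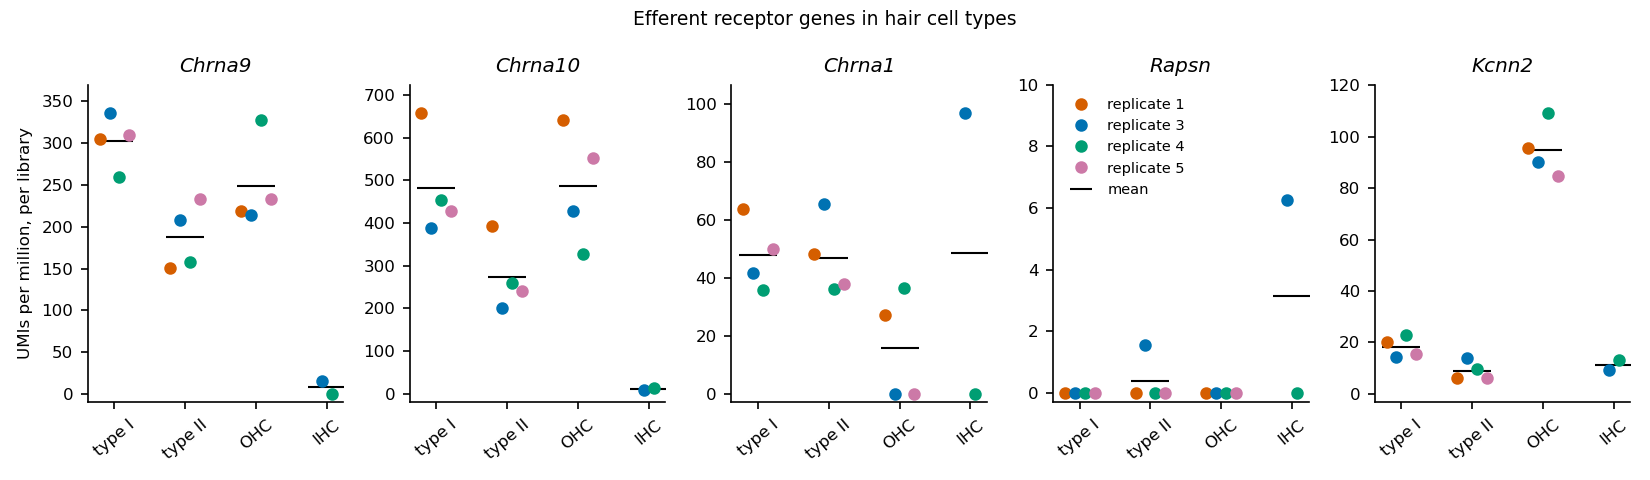
CPM of each gene (y axis, linear, its own scale per panel) in type I HCs, type II HCs, OHCs and IHCs, with a point per library coloured by replicate and a bar at the mean. Chrna9 and Chrna10 are near 0 in the 2 IHC libraries, Kcnn2 stands apart in the 4 OHC libraries, and Rapsn is at or near 0 in every type.

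Between the vestibular types, edgeR's quasi-likelihood test on UMIs summed per library found Chrna9 and Chrna10 higher in type I HCs. The log2 fold was 0.73 ± 0.17 (SE) for Chrna9, with an adjusted p of 0.00275 over all genes tested by edgeR, and 0.95 ± 0.19 for Chrna10, with an adjusted p of 0.000440. Of the 8004 genes tested, 17.8% were called, 8.06% as higher and 9.73% as lower in type I HCs, and of the 3 members tested 2 were higher and none lower. The summed level of 8 supporting cell markers was 40.4 to 119 CPM for type I and 136 to 308 CPM for type II HCs, with 1 of them at 0 in each, and their part in the difference was not tested. A set-aside subcluster nearest to type II, with supporting cell markers, held 288 cells, against 275 type II HCs kept. It stood at 124 ± 39.8 CPM of Chrna9 and 185 ± 39.4 CPM of Chrna10 (SD, n = 4). The other set-aside vestibular subcluster, nearest to type I, held 234 cells. It stood at 137 ± 76.8 CPM of Chrna9 and 192 ± 88.5 CPM of Chrna10 (SD, n = 4).

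Between the cochlear types the difference was far larger and ran against IHCs. Chrna9 was 17.6-fold lower in IHCs than in OHCs, a log2 fold of -4.14 ± 0.56 (SE), with an adjusted p of 5.09e-06 by edgeR (2 IHC and 4 OHC libraries). Chrna10 was 44.2-fold lower, a log2 fold of -5.47 ± 0.55, with an adjusted p of 7.37e-08 by edgeR. In this comparison 1734 genes passed the filter on low counts, of which 26.2% were called, 13.7% as lower and 12.5% as higher in IHCs. Without replicate 3 the Chrna9 value rested on 1 IHC library with no Chrna9 UMI and became -6.83, a fitted value that depends on the prior count and takes its spread from the OHC libraries alone, while Chrna10 stood at -5.16. The median IHC held 10373 UMIs and the median OHC 2644, so the type with fewer receptor UMIs was the more deeply read one. Erythroid markers summed to 0 to 93.9 CPM in IHC and 0 to 8433 CPM in OHC libraries, fibroblast markers to 0 to 56.3 and 219 to 1697 CPM and supporting cell markers to 105 to 141 and 0 to 147 CPM, while all 6 macrophage markers were at 0 in OHCs, and their part in the result was not tested.

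A set-aside cochlear subcluster of 71 cells, with Slc17a8 in 91.5% of cells but also 7 supporting cell markers, was present in all 4 libraries. Its Chrna9 stood at 8.47, 44.5, 0 and 10.8 CPM and its Chrna10 at 46.6, 28.9, 5.37 and 10.8 CPM. Every value of this subcluster lay below the lowest OHC library for the same gene. The other set-aside cochlear subcluster, of 31 cells at a median of 1778 UMIs, had 2 libraries with 5 or more cells. They stood at 0 and 230 CPM of Chrna9 and at 0 and 115 CPM of Chrna10. The 230 CPM lay above the lowest OHC library, at 214 CPM, and the subcluster held 10 Chrna9 UMIs in 3 cells. With the set-aside cells counted as HCs, Chrna9 and Chrna10 remained lower in IHCs at log2 folds of -3.46 and -4.45.

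Per cell, 65.7% of type I HCs held a Chrna9 UMI and 76.9% a Chrna10 UMI, and 52.5% held both. For type II HCs these shares were 54.5%, 57.1% and 34.9%, and for OHCs 46.2%, 69.2% and 34.6%. Of the 42 IHCs, 11.9% held a Chrna9 UMI (95% exact binomial interval 3.98% to 25.6%) and 9.52% a Chrna10 UMI (2.66% to 22.6%). Macrophage-like cells, which should lack the receptor, held Chrna9 in 0 of 387 cochlear cells, which allows a share of up to 0.775%, and in 0.275% of 363 vestibular cells, at median depths of 2401 and 2767 UMIs. Intervals and limits cover counting error only.

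The shares depend on depth, so each cell was also thinned to 1000 UMIs. Chrna9 was then seen in 28.9% of type I HCs, 13.8% of type II HCs, 21.8% of OHCs and 0 of 42 IHCs, and Chrna10 in 36.3%, 19.6%, 42.3% and 0. The order of the types by these shares was that of the CPM for Chrna9, and for Chrna10 the OHCs and type I HCs had like CPM. Among thinned type I HCs, Chrna10 was found in 38.6% of cells with a Chrna9 UMI and in 35.4% of cells without one. The 2 shares of type I HCs thus lay close together, and in thinned type II HCs they were 15.8% and 20.3%.

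The ratio of Chrna10 to Chrna9 UMIs was compared between types, since 3′ UMI counts carry no gene length term but may differ in capture between genes. With 0.5 added to each UMI count, the ratio on the log2 scale was 1.11, 0.21, 0.81 and 0.47 in the type I libraries 1, 3, 4 and 5, and 1.36, -0.06, 0.71 and 0.04 in the type II libraries. The types differed by 0.14 (exact permutation test, two-sided and unpaired, p = 0.714, where 4 against 4 libraries can reach 0.0286). Both types came from the same 4 libraries, which ranked alike in each type, and the unpaired test takes no account of this. It thus cannot decide whether the types differ within libraries. Type I was above type II in replicates 3, 4 and 5 and below it in replicate 1. In OHCs the log2 ratio was 1.53, 0.98, 0 and 1.20. The 2 IHC values, which rest on 9 UMIs in all, were -0.65 in replicate 3 and 1.58 in replicate 4, below and above every OHC library. The means differed by 0.46 (exact permutation test, also unpaired, p = 0.667, smallest possible 0.0667). Replicate 1 had the highest ratio in all 3 types with enough UMIs, and its difference in Cell Ranger version cannot be told apart from the library itself.

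**Figure D2:**
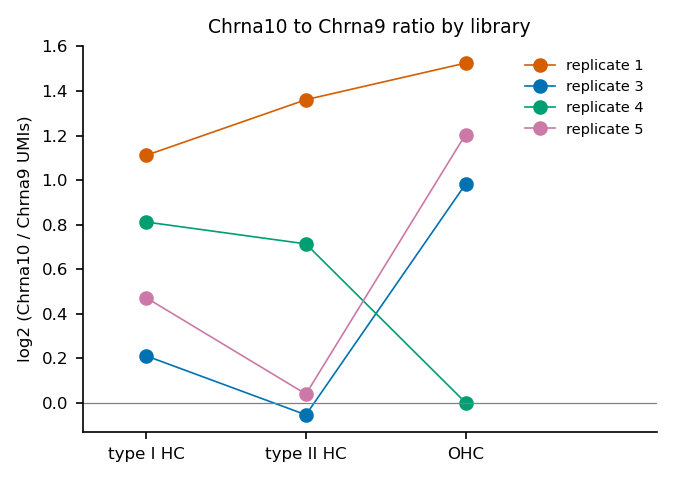
Log2 ratio of Chrna10 to Chrna9 UMIs (y axis) in type I HCs, type II HCs and OHCs, with a line joining the types of each replicate number. Replicate 1 is highest in each type, from 1.11 to 1.53, and the types overlap.

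Across all 47 named and unnamed cell populations of both organs, the gene most like Chrna9 was Chrna10 (Pearson r = 0.97 of mean log2(CPM + 1), as a description over 15361 genes). The next 4 for Chrna9 were Gm9195, 4930558C23Rik, Sh2d4b and D630023F18Rik, with r from 0.92 to 0.96. Those next most like Chrna10 were Gm9195, Myo15, 4930558C23Rik and Gm32742, with r from 0.93 to 0.95. Myo15 encodes the motor protein that builds the hair bundle's stereocilia. Chrna1 was less like the pair, at 0.82 with Chrna9 and 0.83 with Chrna10, though still at ranks 74 and 73 of the 15361 genes. The populations share libraries, so these values carry no test.

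Chrna1, the muscle-type alpha subunit, was low in HCs as a whole but uneven within them. Type I HCs held 63.7, 41.9, 35.8 and 50.2 CPM in replicates 1, 3, 4 and 5, a mean of 47.9 ± 12.1 (SD, n = 4). Type II HCs held 48.3, 65.7, 36.0 and 37.9 CPM, a mean of 47.0 ± 13.6 (SD, n = 4). The types overlapped, and the log2 fold of type I over type II was -0.05 ± 0.25 (SE; adjusted p = 0.941, edgeR). OHCs held 27.3, 0, 36.5 and 0 CPM from 3 UMIs in 78 cells. The skeletal muscle markers, 6 in all, summed to 43.9 to 65.2 CPM in type I HCs with 1 at 0, to 0 to 18.9 CPM in type II HCs with 3 at 0 and to 0 to 68.3 CPM in OHCs with 5 at 0.

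Among type I HCs, Chrna1 separated by subcluster, although no member had entered the clustering. Subcluster 5, led by Ano2, Cntnap5a and Clspn and with Ocm and Calb1 among its 10 leading genes, held 226.9, 193.7, 113.8 and 173.7 CPM of Chrna1, a mean of 177 ± 47.5 (SD, n = 4). Subcluster 0, led by Mgat4c, Bpifa5 and Rgs9, held 0, 3.76, 5.38 and 3.94 CPM, from 9 UMIs in 566 cells. The lowest library of the former was thus far above the highest of the latter. Subcluster 1, led by S100a6, lay between them in every library, at 37.7 to 41.0 CPM. The small subcluster 7, led by Tsix, held 138 CPM in the 7 cells of replicate 1 and 2.22 CPM in the 59 cells of replicate 3. Ocm, which encodes the calcium buffer oncomodulin, stood at 4660 ± 1278 CPM in subcluster 5 and at 2.30 ± 1.75 CPM in subcluster 0 (SD, n = 4). The skeletal muscle markers summed to 67.8 to 89.0 CPM in subcluster 5, with 2 of 6 at 0, and to 32.9 to 67.0 CPM in subcluster 0, with 1 of 6 at 0, and their part in the difference was not tested.

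Type II HCs showed a division of the same kind. Subcluster 8, led by Zp3, 8430422H06Rik and Slc8a1, held 101.6, 157.5, 69.3 and 82.3 CPM of Chrna1, and subcluster 6, led by Mogat1, Fmn1 and Rasd2, held 25.8, 30.3, 15.8 and 29.8 CPM. The 2 sets of libraries did not overlap. The skeletal muscle markers summed to 0 to 11.2 CPM in subcluster 8, with 5 of 6 at 0, and to 0 to 22.4 CPM in subcluster 6, with 3 of 6 at 0. Between these subclusters, Ocm was again higher where Chrna1 was. It stood at 860 ± 400 CPM in subcluster 8 and at 195 ± 117 CPM in subcluster 6 (SD, n = 4). The cochlea did not show this pairing: Ocm was a leading gene of the HC cluster led by Slc26a5, yet OHCs held only 3 Chrna1 UMIs in 78 cells. Whether Ocm and Chrna1 go together over all HC types was not tested. In subcluster 5, 41.3% of cells held a Chrna1 UMI, in subcluster 8 44.3%, in subcluster 6 11.7% and in subcluster 0 1.59%. Thinned to 1000 UMIs, the shares were 17.4%, 13.1%, 2.34% and 0.707%.

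Chrna9 did not follow Chrna1 over these subclusters. It stood at 202 ± 49.9 CPM in subcluster 5, the one with the most Chrna1, and at 349 ± 62.0 CPM in subcluster 0, and the 2 sets of libraries did not overlap (SD, n = 4). Chrna10 overlapped between the same subclusters, at 497 ± 132 and 413 ± 103 CPM. Subcluster 3, led by Gm26917, had the highest mean Chrna9 and Chrna10 CPM, at 429 ± 54.7 and 665 ± 238, and the shallowest type I cells, at a median of 1599 UMIs. These subclusters were compared after their values were seen and carry no test.

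**Figure D3:**
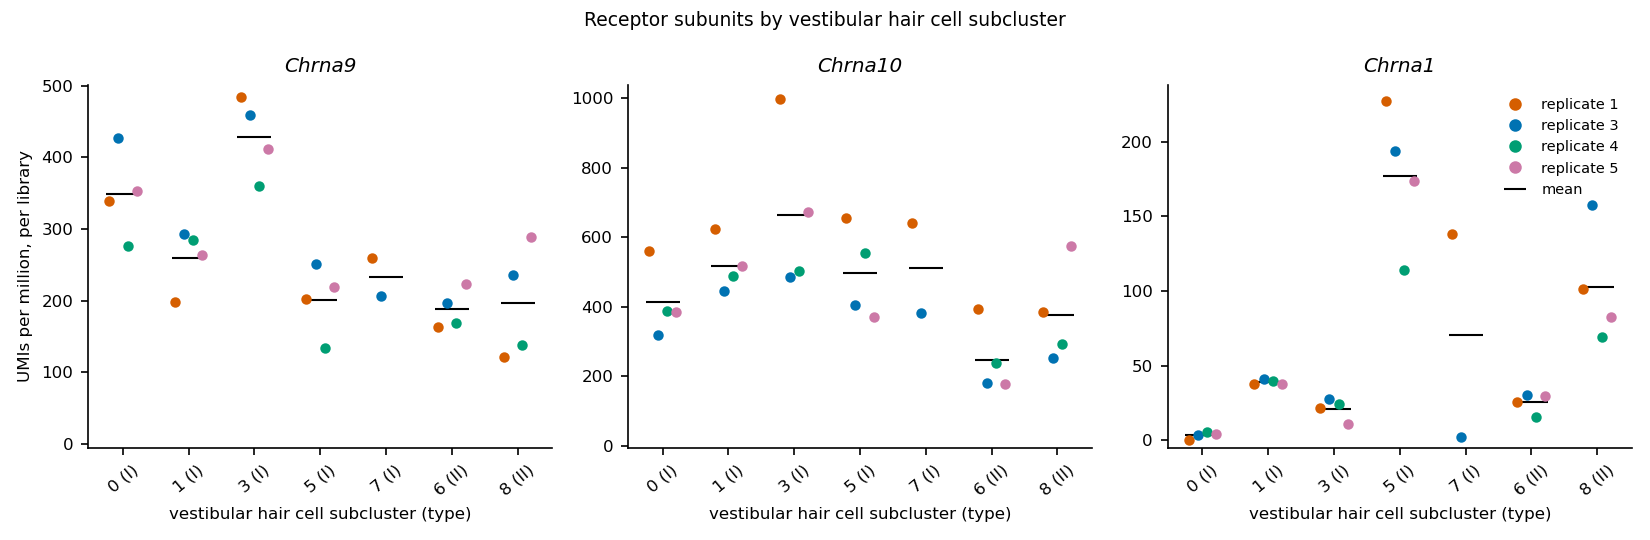
CPM of Chrna9, Chrna10 and Chrna1 (y axes, linear) in the 7 named subclusters of vestibular HCs (x axis, number with type I or II in brackets), with a point per library that had 5 or more cells and a bar at the mean. Chrna1 is highest in type I subcluster 5 and type II subcluster 8, while Chrna9 is highest in type I subcluster 3.

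In IHCs, Chrna1 was at 97.0 CPM in replicate 3, from 31 UMIs in 32 cells, and at 0 in the 5 cells of replicate 4. It fell outside the filter on low counts in the IHC and OHC comparison. Without the filter, the Chrna1 log2 fold of IHCs over OHCs was 2.57 ± 0.78 (SE; adjusted p = 0.0249, edgeR). Over summed UMIs the IHC level was 6.17 times that of OHCs (95% exact counting interval 1.92 to 31.5, from 31 and 3 UMIs), and it rests on replicate 3. The set-aside subcluster with Slc17a8 held 84.7, 75.6, 21.5 and 38.0 CPM in replicates 1, 3, 4 and 5, so Chrna1 UMIs were present in each of its libraries. Chrna1 UMIs outnumbered Chrna9 UMIs in the IHCs of replicate 3 and in all 4 libraries of this subcluster, the reverse of type I, type II and outer HCs as whole types.

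The partners of alpha 1 in the muscle receptor were at or near 0. Chrnd, Chrne, Chrng and Chrnb1, which encode its delta, epsilon, gamma and beta 1 subunits, had means of 0 to 1.57 CPM over the 4 HC types. Of the 13 further nicotinic subunit genes listed, only Chrnb2, the beta 2 subunit of neuronal receptors, passed the filter between the vestibular types, with 16.7 ± 4.43 CPM for type I and 25.3 ± 9.68 CPM for type II HCs (SD, n = 4; adjusted p = 0.319, edgeR). Chrnb2 was higher in vestibular HCs than in other vestibular cells, at 18.5 against 0.570 CPM (log2 fold 4.42 ± 0.31 (SE), adjusted p = 2.65e-07, edgeR). Chrnb1 was lower there, with 2 UMIs in HCs and 508 in other cells.

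Rapsn, which encodes the receptor-anchoring protein, was at or near 0 in all 4 HC types. No Rapsn UMI was found in 1481 type I HCs among 5954335 UMIs, which allows a level of up to 0.504 CPM, and none in 78 OHCs, which allows up to 12.7 CPM. Type II HCs held 1 UMI in 275 cells and IHCs 3 in 42 cells. Cochlear HCs thus had 32.2 times the level of vestibular HCs, with a 95% exact counting interval of 2.58 to 1688 from 3 and 1 UMIs. Rapsn passed the filter only in the comparison of cochlear HCs with other cochlear cells, at a log2 fold of -1.89 ± 0.82 (SE; adjusted p = 0.0806, edgeR), and with the replicate number as a block at -2.13 (adjusted p = 0.0208). Of the 526 Rapsn UMIs in other cochlear cells, 366 lay in 299 neuron-like cells. In the vestibule it was lower in HCs without the filter, from 1 against 102 UMIs, and other cells held 31.2 times the HC level (95% exact counting interval 5.48 to 1244; adjusted p = 9.90e-05, edgeR).

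The highest Rapsn level lay in neuron-like cells of the cochlea. Replicates 1, 3, 4 and 5 held 185.5, 119.2, 86.5 and 157.9 CPM there, a mean of 137 ± 43.4 (SD, n = 4) over 299 cells. The only library outside neurons that reached this range was that of replicate 5 in a set-aside cochlear HC subcluster, at 105.9 CPM from 3 UMIs in 1 cell. Of 366 Rapsn UMIs in these cells, 359 were in cluster 13, led by Cntn5, C130073E24Rik and Brinp3, where 49.3% of 225 cells held one, and 8% did after thinning to 1000 UMIs. The other 74 cells, at a median of 1469 UMIs against 11581, formed cluster 25, led by Dupd1, Myl1 and Rph3a. The neuron markers summed to 9117 to 12099 CPM, with 0 of 6 markers at 0, and the skeletal muscle markers to 0 to 16.9 CPM, with 4 of 6 at 0. Chrnd, Chrne, Chrng and Musk, the kinase of the neuromuscular junction, had no UMI in these neuron-like cells, and Chrna1 had 9.

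Outside neurons, Rapsn was at 23.9, 51.4 and 49.5 CPM in vestibular glia-like cells of replicates 3, 4 and 5, from 8 UMIs in all their cells. Vestibular macrophage-like cells held 11.7 to 33.9 CPM in 4 libraries. In cochlear macrophage-like cells it was at 43.1 CPM in replicate 3 and at 0 in replicates 1, 4 and 5, whose 25, 15 and 24 cells were few.

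Kcnn2 encodes the SK2 channel that turns the receptor's calcium signal into a potassium current. It lies on chromosome 18 at 45268860-45686024 (plus strand, ENSMUSG00000054477), with A330093E20Rik on the other strand. OHCs held 95.7, 90.3, 109.4 and 84.8 CPM in replicates 1, 3, 4 and 5, a mean of 95.05 ± 10.5 (SD, n = 4). Type I HCs held 20.2, 14.2, 22.9 and 15.4 CPM, a mean of 18.2 ± 4.06, and type II HCs 6.04, 14.1, 9.83 and 6.31 CPM, a mean of 9.06 ± 3.76 (SD, n = 4). The 2 IHC libraries held 9.39 and 13.1 CPM. OHCs thus did not overlap any other HC type, and type I lay just above type II, with 14.2 CPM as the lowest type I and 14.1 CPM as the highest type II library.

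OHCs held more Kcnn2 than all vestibular HCs, at a log2 fold of 2.50 ± 0.42 (SE; adjusted p = 4.88e-06, edgeR, a comparison chosen after the data were seen). Between IHCs and OHCs, Kcnn2 had 4 and 22 UMIs and fell outside the filter. Without the filter it was lower in IHCs, at a log2 fold of -2.80 ± 0.76 (adjusted p = 0.00677, edgeR), and with the set-aside cells counted as HCs at -2.79 ± 0.50 (adjusted p = 0.000179). Type I over type II HCs gave a Kcnn2 log2 fold of 0.90 ± 0.43 without the filter (adjusted p = 0.205, edgeR) and of 0.93 ± 0.30 with the set-aside cells (adjusted p = 0.0281, edgeR).

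Kcnn2 was as high in some cells outside the HC clusters as in HCs, which was not so for Chrna9 and Chrna10. A cochlear population led by Fxyd2, Gm525 and Kcnk2 held 138.5, 69.5, 43.3 and 48.4 CPM, which overlapped OHCs through replicate 1. A cochlear population led by Corin, Notumos and Plpp4 held 39.1 to 89.7 CPM, which also reached the lowest OHC library, and one led by Rarres1, Otor and Epha3 held 27.3 to 76.9 CPM. In the vestibule, a population led by Otos, Gm525 and Coch held 27.3 to 41.5 CPM, above every type I library. Macrophage-like cells held a Kcnn2 UMI in 0.258% of cochlear and 0.826% of vestibular cells, against 25.6% of OHCs and 6.62% of type I HCs.

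**Figure D4:**
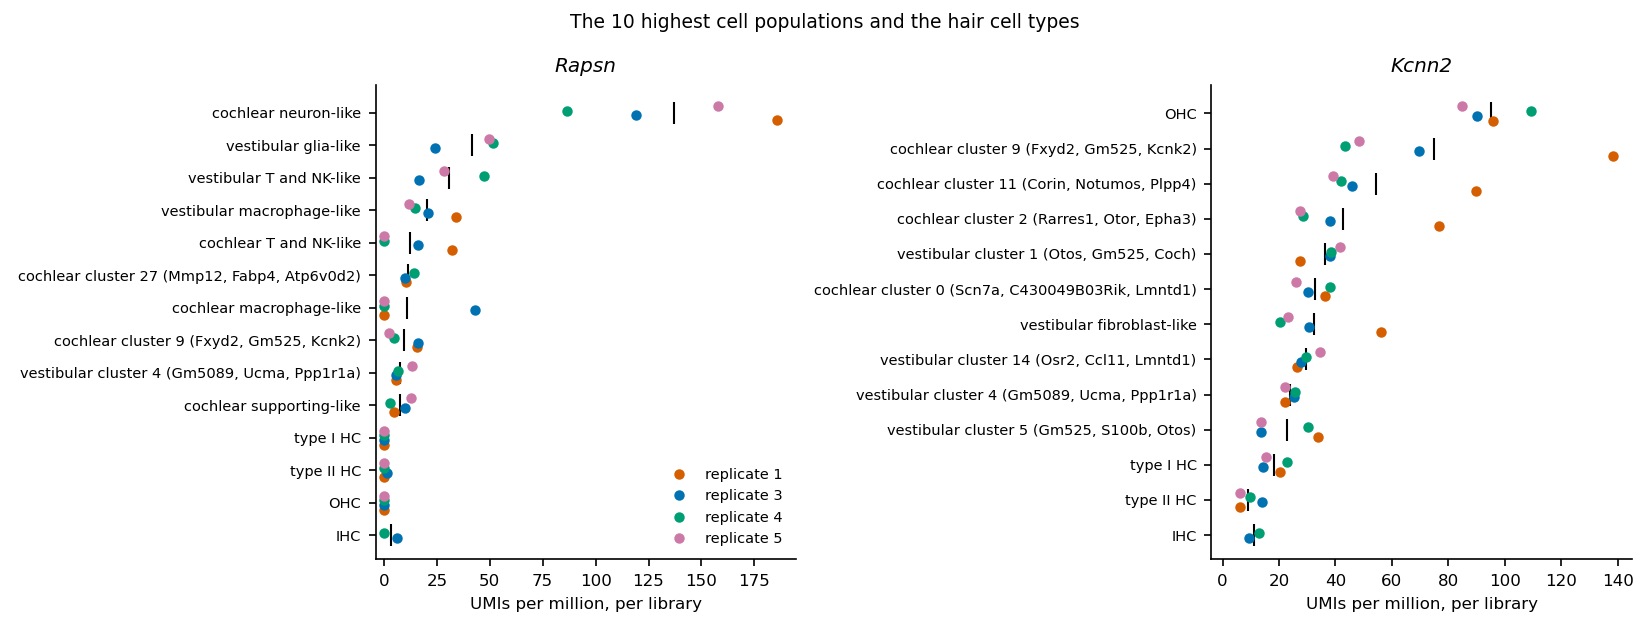
CPM (x axes, linear) of Rapsn and Kcnn2 in the 10 populations with the highest mean over libraries, followed by the HC types not among them, with a point per library coloured by replicate and a bar at the mean. Rapsn stands apart in cochlear neuron-like cells at 86.5 to 185.5 CPM, and Kcnn2 is led by OHCs, overlapped by a cochlear population outside the HC clusters.

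The genes most like Kcnn2 over the 47 populations were Rtn2, Ano4, E130308A19Rik, Sgip1 and Nova1, with r from 0.71 to 0.78. Its r with Chrna9 and Chrna10 was 0.30, far below that between the 2 subunits.

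Taken as whole classes, vestibular HCs were set against all other vestibular cells, and the receptor subunits were higher in HCs, while Rapsn, lower as given above, was outside the filter. Log2 folds were 6.38 ± 0.26 (SE) for Chrna9, 6.53 ± 0.23 for Chrna10 and 6.52 ± 0.44 for Chrna1, with adjusted p of 1.15e-08, 1.13e-08 and 1.93e-07 by edgeR. In this comparison 62.5% of 12728 genes were called, 28.8% as higher and 33.7% as lower in HCs. Without replicate 3 the Chrna1 log2 fold was 7.22. Kcnn2 differed by 0.00 ± 0.21 (adjusted p = 0.997, edgeR), with 16.3 ± 3.24 CPM in HCs and 12.8 ± 3.24 CPM in other cells (SD, n = 4).

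The other vestibular cells still held 67 Chrna9 and 92 Chrna10 UMIs. The ratio of Chrna10 to Chrna9 UMIs in them was 1.37, and in HCs 1.39. The ratio of Chrna1 to Chrna9 was 0.134 in other cells and 0.158 in HCs. For Kcnn2, by contrast, the ratio to Chrna9 was 4.43 in other cells and 0.0544 in HCs. In the cochlea the ratio of Chrna10 to Chrna9 was 4.67 in other cells and 2.05 in HCs. That of Chrna1 was 3.33 and 0.656 there, and that of Kcnn2 161 and 0.443. The cochlear ratios in other cells rest on 3 Chrna9 UMIs.

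In the cochlea, HCs exceeded other cells in 4 of the 5 genes. Chrna9 had 61 UMIs in HCs and 3 in 7050 other cells, 870 times the level per UMI (95% exact counting interval 284 to 4335; adjusted p = 4.04e-09, edgeR). Chrna10 had a log2 fold of 8.42 ± 0.82 (SE; adjusted p = 7.66e-07), which became 9.12 without replicate 1, and Chrna1 one of 6.92 ± 0.59 (adjusted p = 2.17e-07, edgeR). Kcnn2 had a log2 fold of 1.08 ± 0.36 (adjusted p = 0.0256, edgeR), with 51.6 ± 27.8 CPM in HCs and 17.9 ± 3.76 CPM in other cells (SD, n = 4). The Kcnn2 call was lost without replicate 4 (adjusted p = 0.0625) and without replicate 5 (adjusted p = 0.109), and with OHCs alone its log2 fold was 1.91 (adjusted p = 0.000497). Here 40.4% of 9912 genes were called, 14% as higher and 26.4% as lower in HCs, and of the 5 members 4 were higher.

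**Figure D5:**
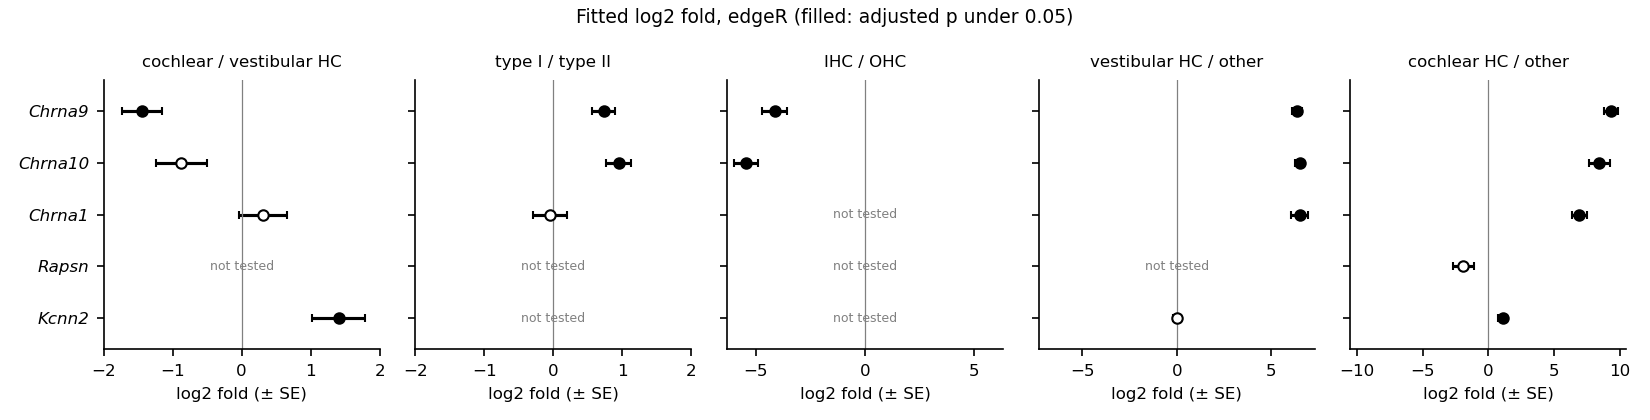
Log2 fold of the first over the second group with its SE (x axes, scale differing between panels) for the 5 genes in the 5 comparisons by edgeR, where filled points have an adjusted p under 0.05. Chrna9, Chrna10 and Chrna1 lie far to the right against other cells. In IHCs against OHCs, Chrna9 and Chrna10 lie to the left, and genes outside the filter on low counts, Chrna1 among them there, are marked as not tested.

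The comparison of cochlear with vestibular HCs asked whether the organs differ, and its result for the receptor differed with the cochlear HCs counted. Over all named HCs, Chrna9 was lower in the cochlea at a log2 fold of -1.44 ± 0.28 (SE; adjusted p = 0.000393, edgeR), with 118 ± 64.6 CPM against 280 ± 31.3 CPM (SD, n = 4), where 30.3% of 7629 genes were called, 12.9% as higher and 17.4% as lower in the cochlea. Chrna10 differed by -0.87 ± 0.38 (adjusted p = 0.0886, edgeR) and Chrna1 by 0.31 ± 0.34 (adjusted p = 0.557, edgeR), and both overlapped between the organs. Kcnn2 was higher in the cochlea, at 1.40 ± 0.38 (adjusted p = 0.00635, edgeR), but not past the threshold with the set-aside cells counted as HCs (0.84, adjusted p = 0.0512). IHCs were 1 of 25 cochlear HCs in replicate 1 and 32 of 64 in replicate 3. Without replicate 1, the Chrna10 log2 fold was -1.46 (adjusted p = 2.21e-05, edgeR).

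With OHCs alone against all vestibular HCs, a comparison chosen after the data were seen, the receptor difference between the organs was no longer called for Chrna9. It stood at -0.29 ± 0.25 (SE; adjusted p = 0.442, edgeR), Chrna10 at 0.16 ± 0.24 (adjusted p = 0.702) and Chrna1 at -1.89 ± 0.72 (adjusted p = 0.0449, from 3 OHC UMIs). Against type I HCs alone the log2 folds of OHCs were -0.40 ± 0.25 for Chrna9 and 0.03 ± 0.25 for Chrna10, and 2.38 ± 0.42 for Kcnn2 (adjusted p = 1.58e-05, edgeR). These comparisons share their vestibular libraries with the one before.

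Further genes of the pathway were taken from lists, and each is given by its count. Of 7 genes for receptor assembly, Ric3, a chaperone of nicotinic receptors, was higher in HCs than in other cells of both organs, at 46.7 ± 11.97 CPM in vestibular and 81.3 ± 32.2 CPM in cochlear HCs (SD, n = 4; adjusted p = 2.64e-05 and 8.00e-05, edgeR). Dok7, an adaptor of the kinase Musk, was higher in cochlear than in vestibular HCs (log2 fold 2.07 ± 0.43, adjusted p = 0.000610, edgeR). Of the 5 of these 7 tested between vestibular HCs and other vestibular cells, 1 was higher and 2 were lower, where 28.8% and 33.7% of all genes were, namely Lrp4 and Agrn, the receptor and ligand of the neuromuscular signal. None of the 2 tested between type I and type II HCs was called, where 17.8% of all genes were, and the list's median log2 fold was -0.31 against 0.01 over all genes tested.

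Of 11 genes for calcium-activated potassium channels and their partners, 6 were tested between the vestibular types and 3 were higher in type I HCs, with a median log2 fold of 0.32, where 8.06% of all genes were higher and the median of all was 0.01. Among them was Kcnma1, the BK channel gene, at 176 ± 22.2 against 116 ± 31.8 CPM (SD, n = 4; adjusted p = 0.0139, edgeR). Kcnma1 had about 10 times the UMIs of Kcnn2 in vestibular HCs, with 1191 against 116. Kcnn1, Kcnn3 and Kcnn4, the other SK and IK channel genes, had means of 0 to 8.10 CPM over the 4 HC types. Of 5 genes of this list tested between IHCs and OHCs, 2 were higher in IHCs and none was lower, where 12.5% and 13.7% of all genes were.

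Of 8 calcium store genes, Atp2a2, the calcium pump SERCA2, was higher in type I than in type II HCs, at 387 ± 17.3 against 209 ± 14.0 CPM (SD, n = 4; adjusted p = 1.30e-05, edgeR). It was the only 1 of 3 tested that was called, where 17.8% of all genes were called and 8.06% were higher in type I HCs. Atp2a3, the pump SERCA3, was higher in IHCs than in OHCs, at 756 ± 15.2 CPM (n = 2) against 24.4 ± 30.7 CPM (SD, n = 4; adjusted p = 1.08e-07, edgeR). Ryr2, the ryanodine receptor gene, stood at 55.1 ± 7.22 CPM in vestibular HCs and 1.07 ± 0.264 CPM in other vestibular cells (SD, n = 4; adjusted p = 2.21e-08, edgeR), and no Ryr2 UMI was found in the 2 IHC libraries. Of the 6 store genes tested between vestibular HCs and other vestibular cells, 2 were higher and 3 were lower, where 28.8% and 33.7% of all genes were. The 3 were the inositol trisphosphate receptor genes, with 13.7 against 127 CPM for Itpr1, 1.39 against 54.8 CPM for Itpr2 and 0.524 against 11.4 CPM for Itpr3 (means, n = 4).

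Of 13 genes for other efferent receptors, 4 were tested between the vestibular types and 1 was called each way, where 8.06% of all genes were higher and 9.73% lower in type I HCs. Chrm3, the muscarinic receptor M3, had 150 UMIs in type I HCs, at 28.1 ± 6.73 CPM (SD, n = 4), and none in type II HCs (adjusted p = 2.75e-06, edgeR). Calcrl, the receptor for the efferent peptide CGRP, was higher in type II HCs, at 40.7 ± 9.14 against 3.73 ± 1.52 CPM (SD, n = 4; adjusted p = 5.15e-08, edgeR), while its partner Ramp1 stood at 1.90 ± 2.85 CPM in type II HCs, from 2 UMIs. Of 5 genes listed for cholinergic terminals, Chat, Slc18a3 and Slc5a7 had no UMI in any of the 4 HC types. Between vestibular HCs and other vestibular cells, 2 of the 5 were tested. In HCs 1 was higher and 1 lower, where 28.8% and 33.7% of all genes were.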

How the data were processed

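The deposited files hold raw UMI counts per gene and barcode. Per the labels the authors made them with Cell Ranger 6.1.2 on mm10, while the file headers of replicates 1 and 2 name 5.0.1. Replicate 2 shared 1313 of 1313 cochlear and 1633 of 1641 vestibular barcodes with replicate 1, and their counts differed by less than sampling noise (mean chi-square per gene 0.127 and 0.122), so they were counted as 1 sample. Cells with at least 200 genes, 1000 UMIs and under 25% mitochondrial UMIs were clustered per organ (Seurat 5.3.0, 2000 variable genes less the 5 genes and the other pathway genes listed, 30 components) and HCs were clustered again. No doublet caller was run, and HC subclusters with supporting cell markers or without a defining marker in 50% of cells were set aside, by rules set after the clusters were seen. UMIs were summed per library and type where a library held at least 5 cells, and edgeR 4.0.16 gave the tests (quasi-likelihood, TMM, filterByExpr, Benjamini-Hochberg over all genes tested), without a replicate block. The SE is the log2 fold divided by the root of F. Tests were checked on simulated data. The members and lists were chosen with earlier results of these data known. Named genes were the members, listed genes past the threshold or with the highest HC level, and the 5 genes most like Chrna9, Chrna10 and Kcnn2. Types taken from 1 library share its animals, and their deviations from the group means correlated at 0.168 to 0.253 for type I and type II HCs. Alternatives were DESeq2 1.42.0, its size factors, no filter, a replicate block, each replicate left out, set-aside cells kept, the 5 genes and the listed genes allowed among the variable genes, the mean of replicates 1 and 2, and 2000 UMIs per cell. Where they were allowed, 4 of the 5 genes were variable in the cochlea. In the vestibule 1 was variable among HCs and 0 over all cells, so there this setting hardly differed for the 5 genes. The labels do not say whether replicates were dissected apart, and p-values measure the spread between libraries. Total UMIs per library, 2738036 to 26974948 over all barcodes, set the precision. Values of some listed genes are not reported here.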

Additional observations from a re-analysis of the deposited data

Results flagged for a closer look

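In 2 of 18 groups of 4 libraries, 1 library stood apart from the other 3 by Dixon's test, which flags about 1 in 20 groups by chance. Rapsn was at 0 in every library of type I HCs and of OHCs, so these groups, counted among the 18, could not be tested. Chrna9 in OHCs was at 328 CPM in replicate 4, from 9 UMIs in 8 cells, and the next library was at 233 CPM. Rapsn in type II HCs was at 1.56 CPM in replicate 3, from 1 UMI, and at 0 in the other libraries, and any single UMI against 3 libraries at 0 is marked in this way.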

How the results depend on the processing

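Of 18 tested results for the 5 genes, 13 were called, where 17.8% to 62.5% of all genes tested were called in the same comparisons. For those 13 results, 117 of the 122 alternatives set kept the direction and the call. For cochlear against vestibular HCs, the Chrna10 fold was called with no filter (-1.03), with the replicate block (-1.01, adjusted p = 0.00946), with set-aside cells kept (-1.81) and without replicate 1 (-1.46). That of Chrna1 turned to -0.53 without replicate 3, to -1.89 with OHCs alone and to -1.86 for OHCs against type I HCs, where that of Chrna10 turned to 0.16 and 0.030. Leaving out 1 replicate gave -0.53 to 0.44 for this Chrna1 fold, -0.19 to 0.36 for that of Chrna1 between the vestibular types and -0.15 to 0.053 for that of Kcnn2 in vestibular HCs against other cells. For type I against type II HCs, the uncalled Chrna1 fold turned to 0.0034 by DESeq2, 0.028 with no filter, 0.56 with set-aside cells and 0.36 without replicate 3. For Kcnn2 in vestibular HCs against other cells it turned to -0.045 with DESeq2 size factors, -0.046 by DESeq2, -0.14 with set-aside cells and -0.15 without replicate 4. In the cochlea its call was lost with no filter (1.02) and with set-aside cells (0.45). The cause was not tested. Genes called in all numbered 2717 between the vestibular types with set-aside cells, against 1424, and 682 between the cochlear types with no filter, against 454. Leaving out 1 replicate gave 1472 to 2693, 866 to 1523 and 204 to 420 calls for the organs, the vestibular and the cochlear types, with the lowest without replicate 3. Whether the replicate numbers pair the 2 organs is not stated. Deviations of cochlear and vestibular HCs with the same number correlated at 0.0289 to 0.115. Those of IHCs and OHCs, which share a library, did so at 0.0420 and 0.161 in replicates 3 and 4. The check thus cannot tell whether the organs pair. Besides the Chrna10 and Rapsn results above, the block changed no call of a member. Depth limits IHC values, with 42 cells, and levels under about 12.7 CPM in OHCs.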
